A study of Mus musculus with 4 samples.

Results

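DNA repair genes were followed in the transcriptome of medullary thymic epithelial cells (mTECs), the cells of the thymic medulla that display peripheral tissue antigens to developing T cells. A list of 42 genes was chosen by symbol from 5 areas: base excision repair, end joining, homologous recombination, mismatch repair and damage sensing. All 42 were found among the 23337 gene symbols of the deposited count matrix. RNA-seq was performed on mTECs sorted as CD45-EpCAM+UEA-1+Ly51- cells from the thymus of 4-week-old C57BL/6 mice, in 4 libraries: WT 1 and WT 2, labelled wild type, and cKO 1 and cKO 2, labelled Sirt6-/- and called *Sirt6* cKO by the study. Mice of the latter group carried *Foxn1*-Cre and *Sirt6* loxp/loxp. *Foxn1* is active in thymic epithelium of both cortex and medulla, so the Cre was not restricted to mTECs. The controls were *Foxn1*-Cre negative wild-type animals, either littermates or matched by age. How many mice went into a library was not given in the sources used here.

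SIRT6 is a nuclear deacetylase and mono-ADP-ribosyltransferase that is known in other cells for binding at DNA breaks and for assisting base excision repair, end joining and homologous recombination. In base excision repair a glycosylase removes a damaged base, APEX1 cuts the backbone, and XRCC1 with its ligase and polymerase partners closes the gap. Double-strand breaks are either rejoined directly by Ku, DNA-PK, XRCC4 and ligase IV, or resected and repaired from a sister chromatid by the BRCA proteins and their partners, a route that needs replicated DNA. The kinases ATM and ATR report the damage to the checkpoint kinases CHEK1 and CHEK2. Most of these proteins are controlled by recruitment and modification, so the level of their mRNA is only a part of their regulation.

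Library totals lay between 61102704 and 65907745 counts, and 18547 genes were tested. *Sirt6* itself had 622 and 755 counts in WT against 882 and 835 in the cKO-labelled libraries. Its log2 fold change was 0.37 (95% interval -0.43 to 1.18), so the targeted mRNA was not lower in these counts and all directions below rest on the labels. The counts are per gene, and the deleted part was not resolved here. The study tested the knockout by other assays, with a western blot for SIRT6 in cultured thymic epithelial cells and real-time PCR for *Sirt6* in sorted mTECs, and these are not analysed here. All 57 markers of 7 cell types had counts above 0, and *Epcam* (798 to 1201 TPM) and *Aire* (395 to 754 TPM) were abundant in each library. The summed level of 11 mTEC markers was 19257 to 19468 TPM in WT and 21411 to 21660 TPM in the cKO-labelled libraries. The summed level of 9 macrophage and dendritic cell markers, led by *Lyz2*, was 6152 to 9809 TPM in WT and 3838 to 4120 TPM in the cKO-labelled libraries. The summed level of 5 tuft cell markers was 186 and 212 TPM in WT and 125 and 115 TPM in the cKO-labelled libraries. At an unadjusted p of 0.05 in edgeR, 3 of these 5 were lower, as were 3 of the 9 macrophage and dendritic cell markers. Of 9 fibroblast and endothelial cell markers 1 was lower, while 4 of 11 mTEC and 2 of 7 cortical epithelial markers were higher. Thymocyte and B cell markers had 0 calls. Over all genes tested, 3.32% were lower and 5.27% higher. In bulk RNA, fewer cells of a type and less RNA per cell cannot be told apart, and the part of these markers in the results was not tested.

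The first question was whether mRNAs of the repair machinery differed between the groups. None of the 42 genes reached an unadjusted p of 0.05 in either direction with the quasi-likelihood test of edgeR (0 higher and 0 lower), where 8.58% of all tested genes did so, 5.27% being higher and 3.32% lower. None passed an adjusted p of 0.05 (0 genes), which 0.00539% of all genes did, and the smallest adjusted p among the 42 was 0.616. DESeq2 placed 1 of them, *Xrcc5*, under an unadjusted p of 0.05 and 0 under an adjusted one, against 10.2% and 1.88% of the genes it tested. The fitted log2 fold changes were positive for 22 genes and negative for 20, with a median of 0.04, where the median of all tested genes was -0.005. They ranged from -0.63 for *Xrcc5* to 0.96 for *Chek2*, and in the sentences on single genes a bare value in parentheses is this log2 fold change, cKO-labelled over WT. An absolute log2 fold change over 0.5 was fitted for 15 of the 42 genes (35.7%) and for 40.6% of all genes, and one over 1 for 0 of the 42 and 17.2% of all genes. The CPM values (counts scaled to the library size and TMM factor) of the groups did not overlap for 16 of the 42 (38.1%), 8 in each direction, and for 41.9% of all genes, 21.6% being higher and 20.3% lower. These shares were thus close to or below those of all tested genes. No share was matched for expression level. The filter was set at 10 counts, while each of the 42 genes but *Palb2* had at least 144 in every library. A lower share can therefore not be read as a trait of these genes.

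**Figure D1:**
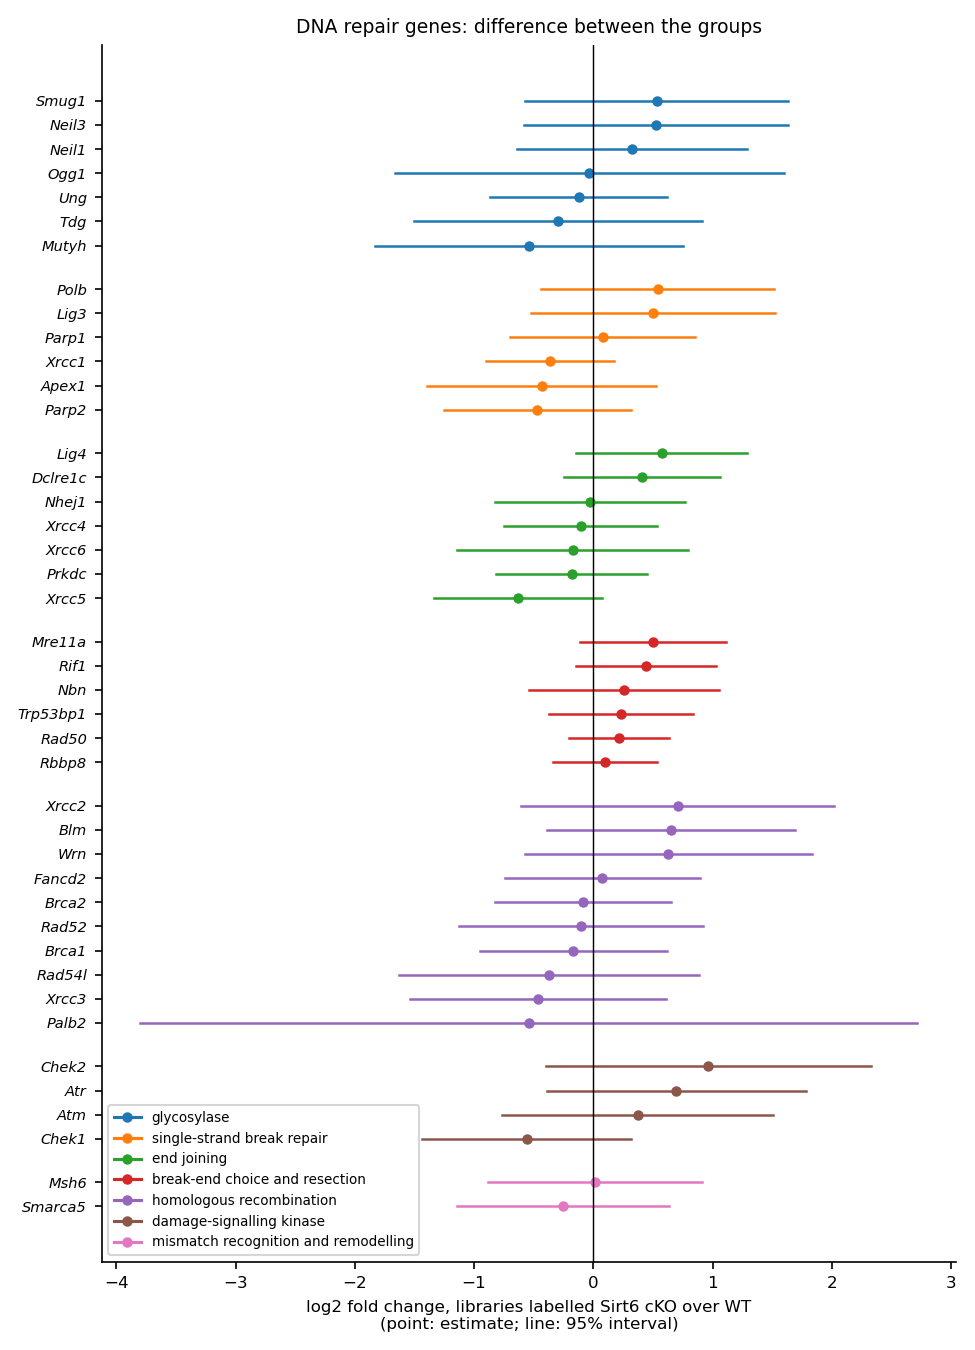
Log2 fold change of each of the 42 DNA repair genes, cKO-labelled libraries over WT, grouped by role, with the 95% interval of edgeR's fit as a line. Each of the 42 intervals includes 0, and the one of *Palb2* is the widest, from -3.80 to 2.72.

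These intervals set what the comparison could show. The whole 95% interval lay within a 2-fold change either way, between -1 and 1 on the log2 scale, for 13 of the 42 genes (31.0%), where 25.6% of all genes met the same bound. For the other genes the interval reached past a 2-fold change in at least 1 direction, and the absence of a call does not show equal levels. The median standard error was 0.355 over the 42 genes and 0.411 over all genes. *Rad50*, which holds broken ends together as part of the MRE11 complex, had the narrowest interval, -0.21 to 0.64. The calls also depended on single libraries: without WT 1 there were 4 higher genes (*Blm* 1.18, *Neil3* 1.15, *Palb2* 3.15 and *Xrcc2* 1.39 on the log2 scale), without WT 2 *Atr* was higher by 1.27 and *Palb2* lower at -1.48, and without cKO 2 *Wrn* was higher by 1.14, all at an unadjusted p under 0.05 in edgeR. Without cKO 1 there were 0 calls, and none of these passed the adjusted p (0 genes).

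Levels were compared between genes in TPM, which accounts for transcript length. The mean over the 4 libraries ranged from 3.73 TPM for *Palb2* to 97.3 TPM for *Xrcc6*, a 26.1-fold span, and the median of the 42 genes was 15.1 TPM beside 10.9 TPM over all tested genes. The 5 genes above 50 TPM were *Xrcc6*, *Rbbp8* (89.5 TPM), *Rad50* (67.3 TPM), *Xrcc1* (55.0 TPM) and *Parp1* (54.5 TPM), which serve the 2 ways of handling a double-strand break and the sensing of single-strand breaks. The 14 genes below 10 TPM included all 4 damage-signalling kinases and, among the homologous recombination genes, *Rad52*, *Brca1*, *Xrcc2*, *Brca2* and *Palb2*. Of the 41 pairs of neighbours in this order, 39 had overlapping ranges over the libraries, so most neighbouring ranks did not differ beyond the spread. The complex partners named next stood further apart in this order, at ranks 1 and 9, 3, 8 and 12, and 10 and 25. Their constant order can therefore not be set against that of neighbouring ranks. *Xrcc6* exceeded its Ku partner *Xrcc5* in 4 of 4 libraries, *Rad50* exceeded *Nbn* and *Nbn* exceeded *Mre11a* in 4 of 4, and *Xrcc4* exceeded *Lig4* in 4 of 4.

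**Figure D2:**
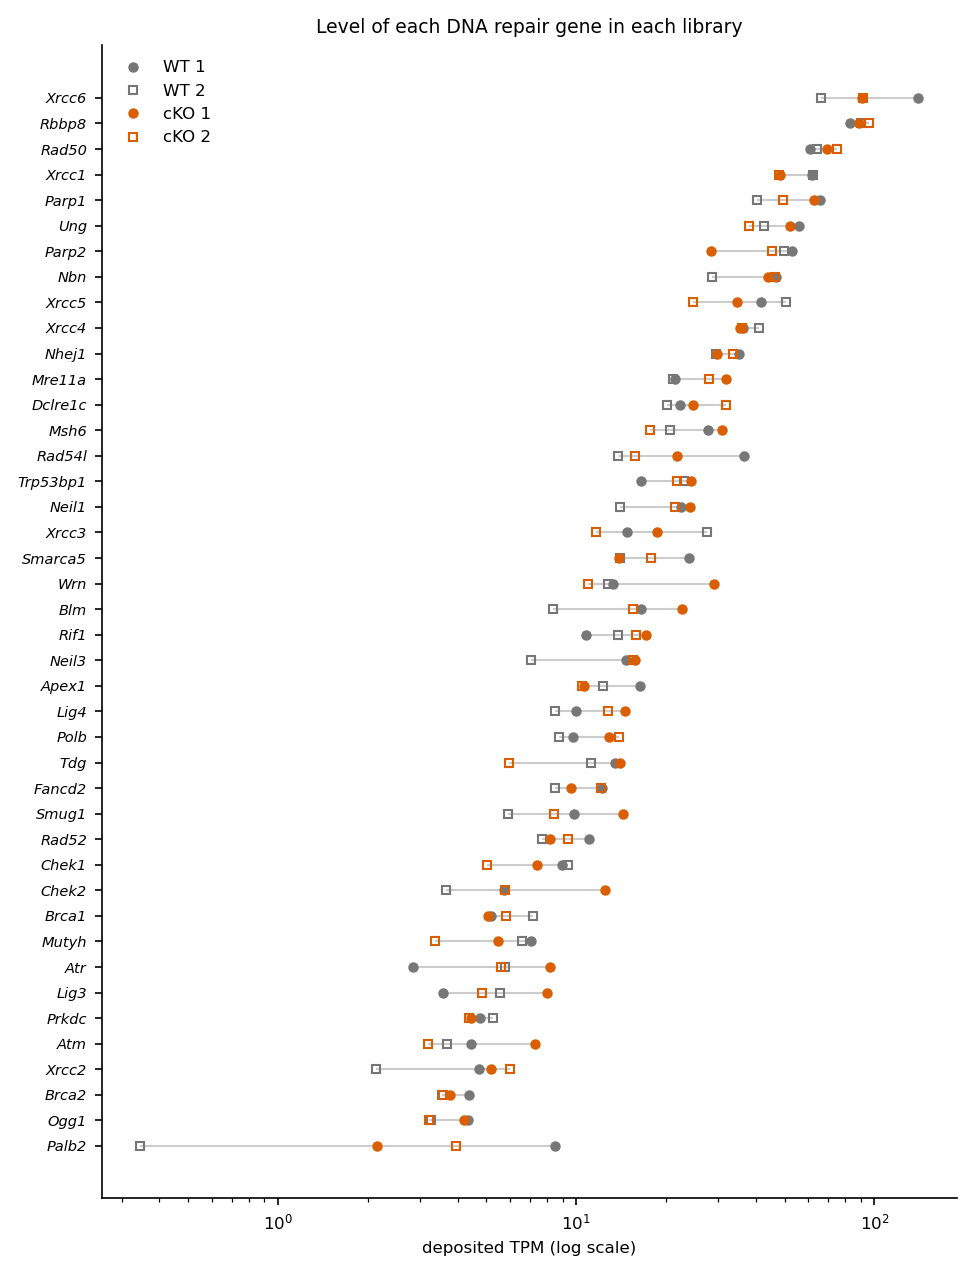
Deposited TPM (log axis) of each DNA repair gene in each of the 4 libraries, ordered by the mean, with a line from the lowest to the highest library. The means run from 97.3 TPM for *Xrcc6* to 3.73 TPM for *Palb2*, whose libraries lie farthest apart.

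The DNA glycosylases start base excision repair, each for its own set of damaged bases. The 7 genes had a median log2 fold change of -0.03, with 3 positive and 4 negative. *Ung*, which removes uracil, was the most abundant in 4 of 4 libraries (47.2 TPM on average) with 3220 and 2348 counts in WT against 2773 and 2125 in the cKO-labelled libraries. *Smug1*, a second uracil glycosylase, had the smallest p of the role, with 1074 and 610 counts in WT against 1433 and 888 in the cKO-labelled libraries. The groups overlapped, since cKO 2 lay below WT 1, and the fitted difference was 0.53 on the log2 scale (standard error 0.44, adjusted p = 0.79). Of the glycosylases for oxidized bases, *Ogg1* and *Neil1* had log2 fold changes of -0.03 and 0.32 with overlapping groups. *Neil3* had 999 and 455 counts in WT against 986 and 1022 in the cKO-labelled libraries, so WT 2 alone was low and the other 3 libraries lay together (0.53, 95% interval -0.58 to 1.64). *Mutyh*, which removes adenine opposite 8-oxoguanine, had 351 and 309 counts in WT against 263 and 172 in the cKO-labelled libraries, without overlap (log2 fold change -0.54, 95% interval -1.83 to 0.76). *Tdg*, the thymine glycosylase that also acts in DNA demethylation, had 1309 and 1026 counts in WT against 1255 and 556 in the cKO-labelled libraries. Its transcript shares 57.1% of its 50-base words with other annotated genes, mostly the pseudogene *Tdg-ps*, so its level is uncertain.

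Genes that act after base removal or at single-strand breaks had a median log2 fold change of -0.14. *Xrcc1* (chr7:24546289-24573440), the scaffold of this pathway, had the closest replicates of the 42 genes, with 4021 and 3836 counts in WT against 2885 and 3007 in the cKO-labelled libraries. Both WT libraries lay above both others, at 60.9 ± 0.81 CPM (SD, n = 2) against 47.3 ± 0.65 CPM (SD, n = 2). The fitted log2 fold change was -0.36 (standard error 0.21, 95% interval -0.90 to 0.17), and with an adjusted p of 0.70 it did not pass the test, whose error is shared among genes of like abundance. *Parp2*, a break sensor that makes poly-ADP-ribose, had 2861 and 2537 counts in WT against 1404 and 2381 in the cKO-labelled libraries, without overlap (-0.47 on the log2 scale). Its relative *Parp1*, whose TPM exceeded that of *Parp2* in 3 of 4 libraries, had 7578, 4425, 6635 and 5515 counts in WT 1, WT 2, cKO 1 and cKO 2 in turn (0.08 on the log2 scale). *Apex1*, the abasic-site nuclease, was lower in both cKO-labelled libraries (646 and 459 against 385 and 402 counts, -0.43 on the log2 scale), and 877 of its 1422 exon bases are also exon of *Pip4p1* on the other strand. *Polb*, the gap-filling polymerase, went the opposite way, with 361 and 308 counts in WT against 439 and 499 in the cKO-labelled libraries (0.54, 95% interval -0.44 to 1.51). *Lig3*, the ligase that XRCC1 holds, had 643 and 945 counts in WT against 1319 and 843 in the cKO-labelled libraries, with overlap.

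Among the end-joining genes *Xrcc5*, which lies at chr1:72307421-72394952 of GRCm38 and encodes the KU80 subunit of the ring that first binds a broken end, had the smallest p of all 42 genes. Its WT libraries held 3216 and 3675 counts and the cKO-labelled ones 2446 and 1836, or 53.4 ± 6.09 CPM (SD, n = 2) against 34.6 ± 8.42 CPM (SD, n = 2). The groups did not overlap, and both cKO-labelled libraries were the lower ones. The log2 fold change was -0.63 (standard error 0.28, 95% interval -1.33 to 0.08), with an unadjusted p of 0.0709 and an adjusted p of 0.616 in edgeR. It fell below an unadjusted p of 0.05 with DESeq2, with upper quartile normalization, with library size alone and with limma on log2(TPM + 1), where it lay between -0.64 and -0.72. *Xrcc6*, the KU70 subunit, had 8942 and 3994 counts in WT against 5334 and 5674 in the cKO-labelled libraries, so that WT held both the highest and the lowest library (-0.17, 95% interval -1.14 to 0.80). *Prkdc*, the DNA-PK kinase that Ku recruits, was lower without overlap by a small margin, with 1822 and 1908 counts in WT against 1553 and 1623 in the cKO-labelled libraries (-0.18). *Dclre1c*, the nuclease Artemis, had 2611 and 2221 counts in WT against 2589 and 3607 in the cKO-labelled libraries (0.41). *Lig4*, the ligase of this pathway, had 1226 and 987 counts in WT against 1644 and 1525 in the cKO-labelled libraries. Both of the latter were above WT, with a log2 fold change of 0.58 (95% interval -0.14 to 1.29) and an adjusted p of 0.64. Its scaffold partners *Xrcc4* and *Nhej1* lay at -0.11 and -0.03.

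The promoters of the Ku pair are shown because these 2 genes make 1 protein ring and yet differed in level, in their spread between libraries and in promoter sequence. Each window runs from 250 bases before to 50 bases after a start site of RefSeq on GRCm38.p6, and capitals mark CCAAT boxes (CCAAT or its complement) and the E2F site found in *Xrcc6*. *Xrcc5* (chr1:72307171-72307470, plus strand) had 1 CCAAT box 169 bases upstream of the start, no E2F match and 48.0% G and C. *Xrcc6* (chr15:82016119-82016418, plus strand) had an E2F match 46 bases upstream, a CCAAT box 27 bases downstream, 3 GC boxes and 64.3% G and C.
Xrcc5: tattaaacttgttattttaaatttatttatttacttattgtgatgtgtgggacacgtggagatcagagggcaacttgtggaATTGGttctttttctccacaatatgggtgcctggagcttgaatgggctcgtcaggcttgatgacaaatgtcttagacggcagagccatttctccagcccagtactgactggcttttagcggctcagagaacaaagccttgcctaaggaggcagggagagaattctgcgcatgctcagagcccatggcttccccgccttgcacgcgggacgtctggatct
Xrcc6: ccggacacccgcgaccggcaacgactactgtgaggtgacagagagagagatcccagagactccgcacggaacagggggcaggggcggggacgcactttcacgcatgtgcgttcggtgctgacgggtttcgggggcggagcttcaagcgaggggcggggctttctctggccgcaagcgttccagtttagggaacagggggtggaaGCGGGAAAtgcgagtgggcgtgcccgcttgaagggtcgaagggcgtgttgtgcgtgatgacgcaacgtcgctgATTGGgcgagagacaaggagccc

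The genes for the choice of repair route and for resection of the ends were the only role with 1 sign throughout: 6 of 6 fitted log2 fold changes were positive, from 0.10 for *Rbbp8* to 0.50 for *Mre11a*, with a median of 0.25, and 0 of 6 passed the test in edgeR or DESeq2. Of all 18547 genes tested, 9204 were positive. The count of 6 held under each of the 12 alternatives but one, since *Nbn* lay at -0.07 without WT 2. With 1 library left out, *Rbbp8* lay as low as 9.9e-05. *Mre11a* (chr9:14784654-14837123), the nuclease of the MRE11 complex, had 1938 and 1804 counts in WT against 2646 and 2454 in the cKO-labelled libraries, or 29.0 ± 0.89 CPM (SD, n = 2) against 41.0 ± 3.95 CPM (SD, n = 2). Both cKO-labelled libraries were above both WT libraries, with a log2 fold change of 0.50 (standard error 0.24, 95% interval -0.11 to 1.11, adjusted p = 0.64 in edgeR). Its exons overlap those of *Ankrd49* on the other strand by 154 bases. *Rif1*, which with 53BP1 shields ends from resection, had 2776 and 3340 counts in WT against 4047 and 3952 in the cKO-labelled libraries, without overlap (0.44). *Trp53bp1*, which encodes 53BP1, had 3842, 5048, 5171 and 4927 counts in WT 1, WT 2, cKO 1 and cKO 2, with overlap (0.24). *Rad50* had 9469 and 9440 counts in WT against 9866 and 11322 in the cKO-labelled libraries, without overlap (0.21). *Nbn*, the third subunit of the MRE11 complex, was low in WT 2 alone, with 3524, 2032, 3026 and 3370 counts in that order (0.26). *Rbbp8*, which encodes the resection factor CtIP, was close to even, with 8886 and 9089 counts in WT against 8602 and 10016 in the cKO-labelled libraries (0.10, 95% interval -0.34 to 0.54).

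In the homologous recombination genes the median gap between the WT libraries was 0.70 (log2 CPM), beside 0.46 over all genes tested. Between the cKO-labelled libraries it was 0.41, and 0.41 over all genes tested as well. For 10 of the 10, as for 7 of 7 glycosylases, the larger within-group gap exceeded the difference between the groups. The same held for 71.8% of all tested genes. The groups did not overlap for 1 of 10, *Xrcc2*, beside 41.9% of all tested genes. The median log2 fold change of the 10 genes was -0.09. *Palb2* (chr7:122107262-122132985), which brings BRCA2 to BRCA1, had 959 and 37 counts in WT 1 and WT 2, and 223 and 435 in cKO 1 and cKO 2. The 2 WT libraries were the highest and the lowest, and the log2 fold change of -0.54 (95% interval -3.80 to 2.72) lay at 3.15 without WT 1 and at -1.48 without WT 2. *Dctn5*, whose start site lies 56 bases from that of *Palb2* on the other strand, did not share this, with 10184 and 8449 counts in WT against 7131 and 9356 in the cKO-labelled libraries.

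*Xrcc2*, a homologous recombination factor, had 458 and 196 counts in WT against 461 and 566 in the cKO-labelled libraries, so WT 1 and cKO 1 were nearly equal and WT 2 was low (0.71, standard error 0.52). *Blm*, the Bloom helicase, had the smallest p of the role, with 2299 and 1159 counts in WT against 3051 and 2137 in the cKO-labelled libraries, with overlap (0.65, standard error 0.41, adjusted p = 0.72). *Wrn*, the Werner helicase, was high in cKO 1 alone, with 5139 counts against 2561, 2320 and 2043 elsewhere (0.63). *Rad54l*, a DNA-dependent ATPase of strand exchange, was high in WT 1 alone, with 3207 counts against 1206, 1849 and 1399 in WT 2, cKO 1 and cKO 2 (-0.37). *Xrcc3*, another homologous recombination factor, was highest in WT 2 (1895 counts) and lowest in cKO 2 (824 counts). The 2 breast cancer genes were steadier: *Brca1* had 1039, 1360, 935 and 1134 counts and *Brca2* 1388, 1066, 1113 and 1113 in WT 1, WT 2, cKO 1 and cKO 2 in turn. Their log2 fold changes were -0.17 (95% interval -0.95 to 0.62) and -0.08 (95% interval -0.82 to 0.65). *Rad52*, an annealing factor, and *Fancd2*, the central protein of crosslink repair, had log2 fold changes of -0.10 and 0.07 with overlapping groups.

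Of the damage-signalling kinases, *Chek2* (chr5:110839979-110874145), the effector of ATM, had the largest fitted change of the 42 genes. It had 389 and 235 counts in WT against 776 and 380 in the cKO-labelled libraries. Only cKO 1 stood above WT, since cKO 2 lay just below WT 1, and the log2 fold change of 0.96 (standard error 0.54, 95% interval -0.40 to 2.33) had an adjusted p of 0.68. *Chek1*, the effector of ATR, had 917 and 911 counts in WT against 693 and 498 in the cKO-labelled libraries, without overlap (-0.56, standard error 0.35, adjusted p = 0.71). The 2 checkpoint kinases thus had fitted values of opposite sign, and neither passed the test. *Atr*, the kinase that responds to single-stranded DNA, was low in WT 1 alone, with 692 counts against 1324, 1821 and 1326 in WT 2, cKO 1 and cKO 2 (0.70, standard error 0.43). *Atm*, the kinase that responds to double-strand breaks, had 1598 and 1257 counts in WT against 2405 and 1112 in the cKO-labelled libraries, whose 2 libraries were the highest and the lowest (0.37). For all 4 kinases cKO 1 exceeded cKO 2.

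*Smarca5*, the ISWI-family ATPase SNF2H that remodels nucleosomes and is known to be brought to breaks by SIRT6, had 3347 and 1860 counts in WT against 1788 and 2423 in the cKO-labelled libraries. WT 1 was the highest and the other 3 libraries lay together, so the log2 fold change of -0.25 (standard error 0.35) became 0.18 without WT 1. Of its transcript, 35.3% of the 50-base words occur in other annotated genes, mostly *Gm13135*, which makes the level uncertain. *Msh6*, a mismatch recognition factor, had 3572 and 2505 counts in WT against 3645 and 2213 in the cKO-labelled libraries, the same pattern in both groups (0.01, 95% interval -0.89 to 0.91).

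The second question was how far the libraries of a group differed. For 32 of the 42 genes the larger gap between 2 libraries of a group exceeded the difference between the groups, which held for 71.8% of all tested genes. The difference was at least as large as both gaps for 10 genes (23.8%, beside 28.2% of all genes): *Xrcc1*, *Polb*, *Mre11a*, *Lig4*, *Rad50*, *Prkdc*, *Rif1*, *Xrcc5*, *Chek1* and *Dclre1c*. For *Xrcc1* it was 12.9 times the larger gap, and for the other 9 between 1.01 and 2.88 times. Of these 10 genes, 4 are among the 7 end-joining genes and 3 among the 6 of break-end choice and resection. The rest were *Xrcc1* and *Polb* of single-strand break repair and the kinase gene *Chek1*.

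The gaps followed a pattern in the glycosylases. All 7 were lower in the second library of each group than in the first, with median deviations from the gene's mean over the 4 libraries of 0.24, -0.21, 0.27 and -0.21 in log2 CPM (WT 1, WT 2, cKO 1, cKO 2). For *Neil3* the gap between the cKO-labelled libraries was only -0.04, and the level of *Tdg* is uncertain, as said above. Of all 42 genes, 19 were lower in the second library of both groups and 4 higher, beside 4564 and 4364 of the 18547 tested genes. Mitosis genes had the same order more strongly, with 20 of 20 lower in both second libraries, medians of 0.55, -0.50, 0.49 and -0.47, and summed levels of 1543, 717, 1409 and 695 TPM. Of 35 replication genes 28 were lower in both second libraries, with medians of 0.35, -0.19, 0.18 and -0.28. Of 12 thymocyte markers, 11 were also lower in both, with summed levels of 1355, 1003, 1174 and 738 TPM. The part of dividing cells or thymocytes in the values of the repair genes was not tested. The genes of break-end choice and resection had another order, with medians of -0.17, -0.08, 0.16 and 0.16. These medians were higher in both cKO-labelled libraries than in both WT libraries. Gene by gene, the groups did not overlap for 3 of the 6 (50%), beside 41.9% of all tested genes.

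**Figure D3:**
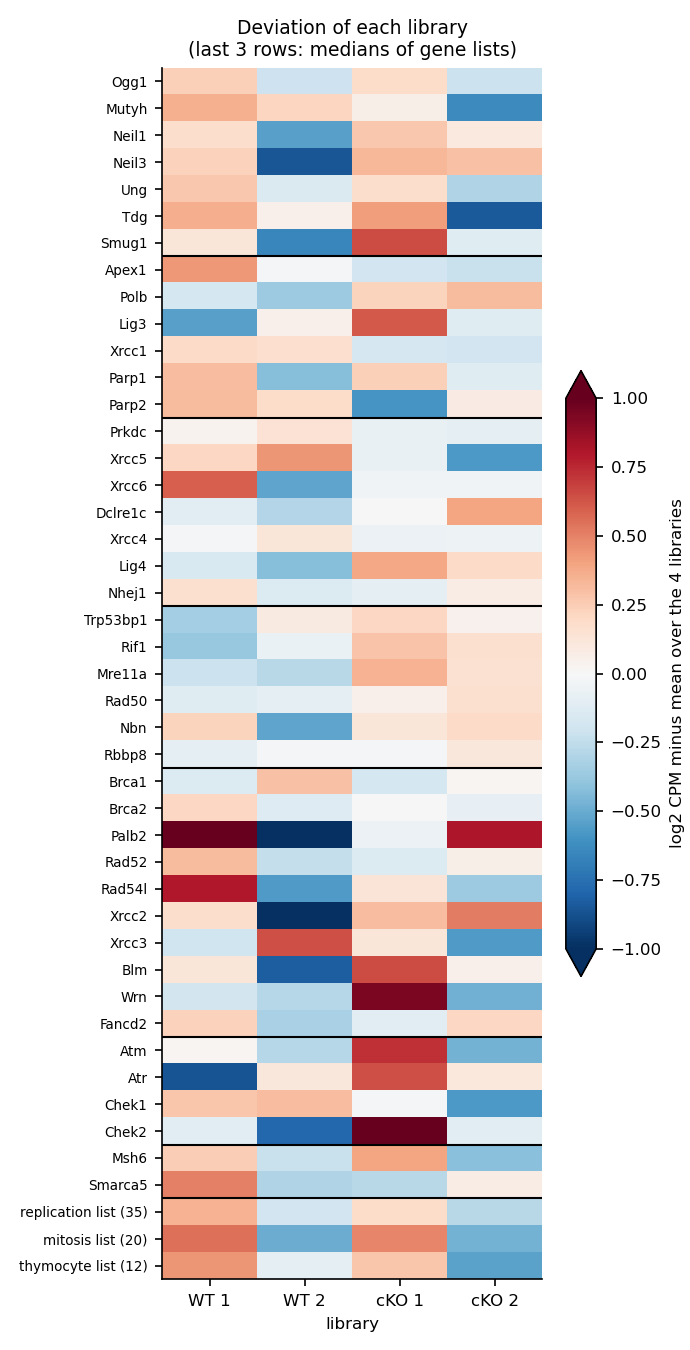
Deviation of each library from the gene's mean over the 4 libraries (log2 CPM, colour scale clipped at -1 and 1) for the 42 DNA repair genes, in blocks by role from glycosylases at the top, with the medians of 3 other gene lists in the last rows. The 7 glycosylases in the top block and the mitosis list are lower in the second library of each group than in the first.

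**Figure D4:**
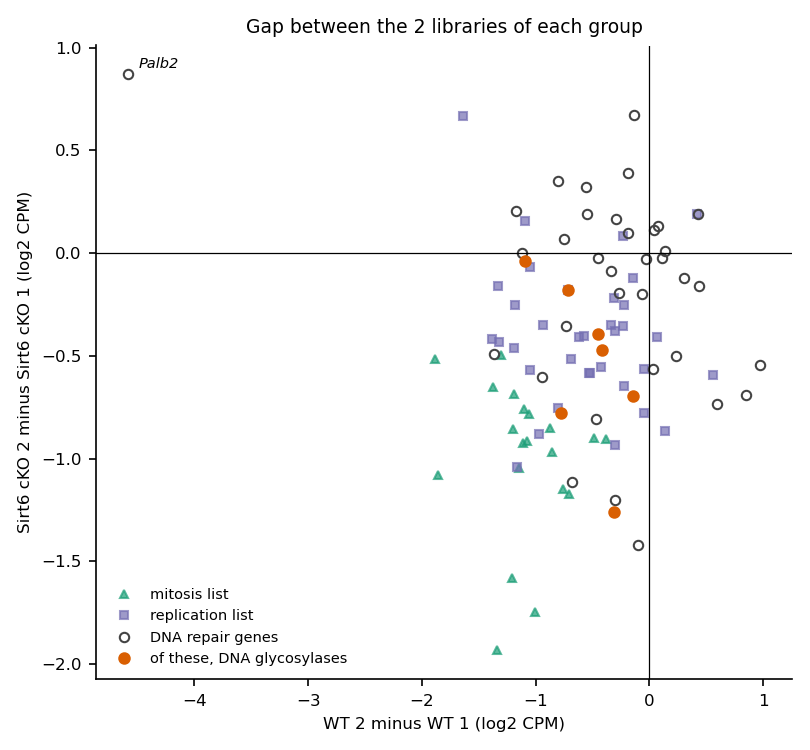
Gap between the 2 libraries of WT (horizontal axis) and of *Sirt6* cKO (vertical axis) in log2 CPM for DNA repair, mitosis and replication genes, 1 point per gene. All 20 mitosis genes and all 7 glycosylases lie below 0 on both axes, while the other repair genes spread to both sides of 0 and *Palb2* stands apart with a WT gap of -4.58.

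Promoter windows of RefSeq were matched for 33 of the 42 genes, and 6 motifs were searched on both strands. A gene counted if any of its windows held the motif. An E2F match (TTTGGCGC, TTTCCCGC, TTTGCCGC or TTTCGCGC) was in 4 of the 33 (12.1%), *Brca2*, *Chek2*, *Msh6* and *Xrcc6*, against 2.60% of 27025 genes with a window and 13 of 28 replication genes (46.4%). The CHR letters TTTGAA, a cell cycle element, were in 0 of the 33, against 20.2% of all genes and 11 of 16 mitosis genes (68.8%). The GC box GGGCGG was in 25 of the 33 (75.8%) and 38.2% of all genes, and the box CCAAT in 18 (54.5%) and 41.1%. The ETS letters CCGGAAGT were in 4 (12.1%) and 4.31%, and the TATA box TATAAA in 3 (9.09%) and 15.7%. In the windows read, 0 matches of different motifs shared bases. These matches describe the letters and no factor's binding was measured. The windows of *Chek2* (chr5:110839733-110840032, plus strand), the gene with the largest fitted change, and *Mre11a* (chr9:14784404-14784703, plus strand), the resection gene with the smallest p, are shown with E2F matches and CCAAT boxes in capitals. *Chek2* held an E2F match 152 bases upstream and CCAAT boxes 186 and 26 bases upstream, and *Mre11a* held CCAAT boxes 73 and 38 bases upstream and no E2F match.
Chek2: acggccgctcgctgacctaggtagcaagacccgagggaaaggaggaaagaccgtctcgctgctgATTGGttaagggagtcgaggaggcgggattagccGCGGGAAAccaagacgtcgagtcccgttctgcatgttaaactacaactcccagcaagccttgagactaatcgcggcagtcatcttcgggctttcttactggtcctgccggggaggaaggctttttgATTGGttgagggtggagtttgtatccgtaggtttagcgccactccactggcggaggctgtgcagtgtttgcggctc
Mre11a: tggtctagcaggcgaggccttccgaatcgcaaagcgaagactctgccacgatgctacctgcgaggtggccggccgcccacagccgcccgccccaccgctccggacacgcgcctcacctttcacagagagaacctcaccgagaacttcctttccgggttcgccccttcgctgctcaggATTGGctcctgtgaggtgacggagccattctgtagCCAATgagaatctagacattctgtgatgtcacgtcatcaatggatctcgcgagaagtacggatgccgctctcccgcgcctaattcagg

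Many of these genes share a promoter region with a neighbour. Of the 42, 16 (38.1%) had a protein-coding neighbour on the other strand whose outermost annotated start lay within 1000 bases of the gene's own. The share was 10.9% of 21951 protein-coding genes, and 45 of 124 (36.3%) in the other repair genes described below. Neighbours at inner start sites, such as that of the *Xrcc6* window printed above, were not counted. The distance was 21 bases for *Lig4* and *Abhd13*, 30 for *Fancd2* and *Emc3*, 75 for *Apex1* and *Osgep*, and 194 for *Brca1* and *Nbr1*. None of the 16 neighbours passed an unadjusted p of 0.05 in edgeR (0 genes), and DESeq2 called 1, *Npat* beside *Atm*, with a log2 fold change of 0.70 (standard error 0.31) in edgeR. The sign of the neighbour's log2 fold change was that of the repair gene in 8 of 16 pairs. *Pinlyp*, 171 bases from *Xrcc1*, was lower as *Xrcc1* was, with 614 and 725 counts in WT against 451 and 407 in the cKO-labelled libraries (-0.59, standard error 0.35). *Ankrd49*, whose first bases overlap those of *Mre11a*, was close to even with 1041 and 848 against 849 and 861 counts (-0.09). *Hscb*, 202 bases from *Chek2*, had 137 and 198 counts in WT against 246 and 110 in the cKO-labelled libraries (0.15). Exons of 18 of the 42 genes overlap exons of a gene on the other strand, and whether the counting used strand was not given in the sources used here.

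Other genes of the same pathways were counted for comparison, from a list of 124 repair genes of which 117 were in the matrix. Of these, 3 passed an unadjusted p of 0.05 upward and 0 downward (2.56%, beside 8.58% of all genes), 0 passed the adjusted p in edgeR, and the median log2 fold change was 0.01. DESeq2 called 8 at the unadjusted p, 6 higher and 2 lower, and 1 at the adjusted p. *Mdc1* (chr17:35841515-35859670), the adaptor that reads phosphorylated H2AX and gathers the MRE11 complex at breaks, had 402 and 220 counts in WT against 1352 and 899 in the cKO-labelled libraries, or 4.80 ± 1.90 CPM (SD, n = 2) against 18.2 ± 5.93 CPM (SD, n = 2). Both cKO-labelled libraries were above both WT libraries, and the log2 fold change was 1.92 (standard error 0.46, 95% interval 0.76 to 3.08), with an adjusted p of 0.54 in edgeR and 0.0243 in DESeq2. *Hus1* (chr11:8993137-9011191), a subunit of the ring-shaped clamp that activates ATR, had 469 and 226 counts in WT against 814 and 1111 in the cKO-labelled libraries, again without overlap (1.52, standard error 0.46, adjusted p = 0.54 in edgeR and 0.138 in DESeq2). *Ddb1*, the abundant adaptor of the ultraviolet damage ligase, had 30230 and 27028 counts in WT against 36863 and 36614 in the cKO-labelled libraries (0.41, standard error 0.15), and it missed the unadjusted p in several alternatives, among them upper quartile normalization, library size alone and each fit that left out 1 library. By group, 2 of 19 damage signalling genes and 1 of 20 nucleotide excision repair genes were higher, while 0 of 14 base excision, 0 of 28 homologous recombination, 0 of 12 Fanconi anaemia, 0 of 12 translesion synthesis, 0 of 6 mismatch repair, 0 of 3 end-joining and 0 of 3 direct reversal genes passed in either direction. Without cKO 1 the higher count was 1 (*Hus1*, 1.69), where *Mdc1* lay at 1.55, and without WT 1 it was 8. *Hus1* missed the unadjusted p without WT 2 (1.10), and also without cKO 2.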

How the data were processed

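mTECs were sequenced in 4 libraries, 2 per group. Reads were trimmed by the authors and mapped on mm10 (HISAT2 2.1.0), genes were quantified with StringTie 1.3.3, and per the labels all mice were 4 weeks old. The deposited counts are whole numbers per gene symbol without normalization. The deposited signal of each library is TPM, which sums to 1000000 without 1 line that names no gene and holds the total (100% of the sum). The 42 genes and all other lists were chosen with earlier results of these data known. Genes were tested across the whole count table with edgeR 4.0.16 in R 4.3.3 (TMM, filterByExpr at 10 counts and a total of 15, glmQLFit and glmQLFTest), with Benjamini-Hochberg adjustment over all 18547 genes tested. CPM used the TMM factors, and deviations and gaps used log2 CPM with a prior count of 2. The 95% intervals come from the same fit, whose biological coefficient of variation was 0.557. With 2 libraries against 2, an exact permutation test has a smallest p of 0.333. The libraries were described as independent parallel samples, and p-values measure only the spread between them. No 2 libraries agreed within sampling noise. Over all genes tested, the deviations of same-numbered libraries were not correlated across genes (r = -0.05). Over the 42 genes r was -0.32, with *Palb2* included at gaps of -4.58 in WT and 0.87 in cKO. Such a correlation leaves out a shift that the genes share, and 19 of the 42 were lower in both second libraries and 4 higher. These values cannot show whether same-numbered libraries were handled together, since some lists, such as the mitosis genes, were lower in both second libraries.

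The genes given in full were *Sirt6*, the member with the smallest p in each role, the 3 highest and 3 lowest log2 fold changes, other repair genes at an unadjusted p of 0.05 and neighbours of these members. Other values were chosen after they were seen. Positions, exon overlap, shared words and neighbours came from GENCODE M21 on GRCm38, and promoters from RefSeq on GRCm38.p6. Printed sequences and site positions used the window nearest to most annotated starts. In the motif shares a gene counted if any of its windows held the motif, as *Lig4* did for ETS in its other window. The alternatives were DESeq2 1.42.0, limma 3.58.1 on log2(TPM + 1) and log2(TPM + 0.1), upper quartile normalization, scaling by library size alone, no filter, a filter of TPM over 0.1 in every library, a replicate block, and each library left out. With 1 library left out, the single library is assumed to vary like the other group. Fold changes on the log2(TPM + 1) scale can understate those of low genes. On the log2(TPM + 0.1) scale they went either way from edgeR, with *Xrcc2* at 0.79 beside 0.71 and *Chek2* at 0.88 beside 0.96. The fit was tested on simulated counts. Python, pandas and matplotlib made the figures.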

Additional observations from a re-analysis of the deposited data

How the results depend on the processing

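None of the 42 repair genes passed an adjusted p under any of the 12 alternatives (0 genes). At the unadjusted p, 1 was lower (*Xrcc5*) with DESeq2, upper quartile normalization, library size alone and limma on log2(TPM + 1), at -0.64, -0.71, -0.72 and -0.64 on the log2 scale. With 1 library left out, 0 to 4 were higher and 0 to 1 lower, and the median moved between -0.08 and 0.23. The log2 fold change kept its sign under all 12 alternatives for 24 of the 42. *Palb2* was 0.72 with the replicate block, 0.15 with limma on log2(TPM + 1), 0.63 with limma on log2(TPM + 0.1) and -1.48 to 3.15 with 1 library left out, and *Smarca5* -0.60 to 0.18, the latter without WT 1. Of the other repair genes, 6 were higher with DESeq2 and 5 with TPM over 0.1 in all libraries, 2 were lower with DESeq2 and 1 each with library size alone, limma on log2(TPM + 1) and limma on log2(TPM + 0.1). Their median was -0.081 with both upper quartile normalization and library size alone. With 1 library left out, 1 to 8 were higher and 0 to 3 lower, and their median lay between -0.031 and 0.11. The cause was not tested. The replicate block, which joins libraries of the same number, left 0 of the 42 genes called and their median at 0.10. Upper quartile normalization and library size alone moved the median of all genes to -0.09 and the share of higher genes among calls from 61.4% to 48.4% and 46.2%, and 19 of the 42 were then positive. *Ddb1* kept its log2 fold change of 0.41 under the block and missed the unadjusted p. With 2 libraries a group, most intervals reached past a 2-fold change.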
